A study of Mus musculus with 8 samples.

Results

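The genes that make, break down and sense histamine were followed in mouse kidney by bulk RNA sequencing. The set was given by symbol and held 6 genes: the decarboxylase genes Hdc and Ddc, the breakdown genes Hnmt and Aoc1, and the receptor genes Hrh1 and Hrh2. Of these 6 genes, 5 had values among the 21759 genes of the deposited table and 3 (Hdc, Ddc and Hnmt) passed the filter on low counts, beside 13474 genes tested in all. Aoc1 was not analysed here. The set was chosen by gene symbol with the higher Hdc level under treatment already in view, that is, it was selected on the Hdc values of these same libraries, so the treatment difference of Hdc is given as a description with no p-value.

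Kidneys came from 8 male knock-in mice of a MUC1 kidney disease model, aged 8 months, so the mutant background was shared by all animals and no comparison with healthy mice was made. In MUC1 kidney disease an inherited frameshift of MUC1 makes an abnormal protein that is held in the secretory pathway of tubule cells. The vehicle group (4 mice) received saline and the BRD4780 group (4 mice) was dosed with BRD4780, a small molecule, at 50 mg/kg, each daily for 7 days. The sample titles call the treatment AGN50. RNA was taken from a sagittal piece of kidney, a bulk sample in which fewer cells of a type and less RNA per cell cannot be told apart. Replicate numbers only name the libraries.

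Histamine is made from histidine in a single step by histidine decarboxylase, the product of Hdc, which needs pyridoxal phosphate. Inside cells it is inactivated by the methyltransferase encoded by Hnmt, and outside cells by diamine oxidase, the product of Aoc1. The H1 receptor acts through Gq and calcium, and the H2 receptor through Gs and cyclic AMP. Ddc encodes aromatic L-amino acid decarboxylase, a relative of histidine decarboxylase that makes dopamine and serotonin and is well known from the proximal tubule, where it supplies renal dopamine. Mast cells are the best known store of histamine, and histidine decarboxylase activity of the mouse kidney is known to rise in pregnancy.

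The sequences just before the starts of Hdc and Ddc are shown because these genes encode related decarboxylases and lay furthest apart in log2 fold change among the 3 genes tested. Each run is the 250 bases before a RefSeq transcript start (GRCm38.p6), written 5′ to 3′ along the gene's own strand, and RefSeq held such windows for 5 of the 6 genes. Capitals mark matches to the HNF4-type repeat CAAAGTNCA or the GC box GGGCGG, searched on both strands.
Hdc, chr2:126618679-126618928, minus strand: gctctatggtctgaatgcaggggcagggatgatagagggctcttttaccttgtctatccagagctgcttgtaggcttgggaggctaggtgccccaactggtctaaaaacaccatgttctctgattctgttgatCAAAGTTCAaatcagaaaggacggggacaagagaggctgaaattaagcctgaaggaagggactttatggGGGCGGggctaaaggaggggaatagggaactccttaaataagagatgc
Ddc, chr11:11898145-11898394, minus strand: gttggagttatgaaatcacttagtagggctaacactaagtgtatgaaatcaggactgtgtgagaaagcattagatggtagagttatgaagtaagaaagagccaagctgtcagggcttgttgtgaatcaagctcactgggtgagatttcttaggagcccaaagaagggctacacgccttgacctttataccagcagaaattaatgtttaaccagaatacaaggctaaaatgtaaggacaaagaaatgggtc

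In the Hdc window the HNF4-type match lay 117 to 109 bases before the start and the GC box 48 to 43 bases before it. HNF4A is a transcription factor of proximal tubule and liver. Of 32851 RefSeq windows of this length, 1.19% held the HNF4-type letters and 32.7% the GC box letters. The Ddc window shown held neither, and held TATAAA (12.4% of windows) on the opposite strand 68 to 63 bases before the start. The RefSeq start of Hdc lies inside the longer GENCODE gene model whose ends are given below. RefSeq gave Ddc a further start, whose window (chr11:11890409-11890658) held no match to any of the motifs searched. The cyclic AMP response element TGACGTCA (1.55% of windows), the ATF4-type element TGATGNAA (3.45%), the STAT-type site TTCNNNGAA (7.02%) and the palindromic glucocorticoid response element (0.00913%) had no match in the windows of Hdc, Ddc or Hnmt, and the GC box letters were also in windows of Hrh1 and Hrh2. The motifs were chosen after the values were seen, none overlapped another in these windows, and a match is only a run of letters.

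Library totals were 16.6 to 28.5 M counts with vehicle and 5.74 to 28.2 M with BRD4780, with BRD4780 replicate 4 the shallowest. Over all genes, an adjusted p under 0.05 was reached by 310 genes that rose (2.3%) and 84 that fell (0.623%), which is 2.92% of 13474 genes. BRD4780 replicate 3 stood apart from the other treated libraries. Without it 1647 genes were higher (12.1%) and 1537 lower (11.3%), or 23.5% of 13558 genes tested, and results below are given with and without it where it moved them. Its summed proximal tubule markers stood at 64100 counts per M (CPM, on TMM-scaled totals), beside 38100 to 49900 CPM in the other treated libraries and 58600 to 66500 CPM with vehicle. Kap, an abundant androgen-regulated gene, made up 67.9% to 74.9% of each of these sums. The other 11 markers summed to 19600 CPM in BRD4780 replicate 3, 12200 to 14000 CPM in the other treated libraries and 15800 to 16700 CPM with vehicle. The proximal tubule list had 12 of 12 markers measured, with 0 called over all 8 libraries and 6 lower without BRD4780 replicate 3.

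Hdc (chromosome 2, 126593667 to 126619299, minus strand, mm10) was the gene of the set with the largest difference between groups. Its expected counts were 69, 39, 27 and 89.01 in vehicle replicates 1 to 4, and 528.95, 465.71, 117 and 143 in BRD4780 replicates 1 to 4. As CPM these were 2.48, 1.44, 1.64 and 3.84 with vehicle, and 21.9, 15.6, 4.39 and 23.9 with BRD4780. BRD4780 replicates 1, 2 and 4 lay far above all vehicle libraries, while replicate 3 lay just above the highest of them. The counting intervals (95%, exact Poisson, counting error only) of BRD4780 replicate 3, 3.63 to 5.27 CPM, and of vehicle replicate 4, 3.08 to 4.72 CPM, overlapped.

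Mean Hdc was 2.35 ± 1.09 CPM in the vehicle mice and 16.5 ± 8.79 CPM in the treated mice (SD, 4 mice each), a log2 fold change of 2.77 ± 0.49 (SE), or 6.82-fold. Without BRD4780 replicate 3 the log2 fold change was 3.10 ± 0.29 (SE), or 8.55-fold. Of the 3 genes of the set that were tested, 1 (Hdc) was higher past the threshold and 0 were lower, where 2.92% of all genes passed (2.3% higher, 0.623% lower). The same 1 gene had groups that did not overlap, as had 12.6% of all genes (7.42% with every treated library above every vehicle library and 5.14% below). Hdc was in view when the set was chosen, so nothing is read from these counts.

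The genes on either side of Hdc did not pass the test. Slc27a2, a fatty acid transporter gene whose end lies 5423 bases from that of Hdc on the opposite strand, averaged 5360 ± 443 CPM in vehicle and 4230 ± 709 CPM in treated kidneys (SD over 4 mice; adjusted p = 0.16). Gabpb1, 8142 bases beyond the start of Hdc, averaged 12.9 ± 0.812 and 13.2 ± 2.23 CPM (SD over 4 mice; adjusted p = 0.878). No annotated gene of GENCODE M21 shares exon bases with Hdc, Ddc, Hnmt or Hrh1.

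Ddc (chromosome 11, 11814101 to 11898144, minus strand) was the most abundant gene of the set and showed no detectable difference. Its values were 73.2, 67.5, 49.7 and 57.2 CPM in vehicle replicates 1 to 4 and 41.9, 56.6, 55.1 and 63.5 CPM in BRD4780 replicates 1 to 4. The groups overlapped, and the lowest library was BRD4780 replicate 1, the library with the second highest Hdc. BRD4780 replicate 4, the library with the highest Hdc, had the highest Ddc of the treated libraries. The means were 61.9 ± 10.5 and 54.3 ± 9.03 CPM (SD over 4 mice). The log2 fold change was -0.20 with an SE of 0.15 (adjusted p = 0.415). The 95% interval of the fold change ran from 0.696 to 1.09, and without BRD4780 replicate 3 the log2 fold change was -0.22 (adjusted p = 0.355).

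Hnmt (chromosome 2, 24002910 to 24049394, minus strand) also overlapped between the groups. Its levels were 18.4, 15.0, 19.7 and 13.2 CPM in vehicle replicates 1 to 4 and at 12.2, 19.7, 13.3 and 15.4 CPM in BRD4780 replicates 1 to 4. The means were 16.6 ± 3.02 and 15.1 ± 3.34 CPM (SD over 4 mice). The log2 fold change was -0.13 with an SE of 0.18 (adjusted p = 0.686), and without BRD4780 replicate 3 it was -0.06 (adjusted p = 0.838). The interval of the fold change, 0.698 to 1.2, leaves room for a change of either sign.

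**Figure D1:**
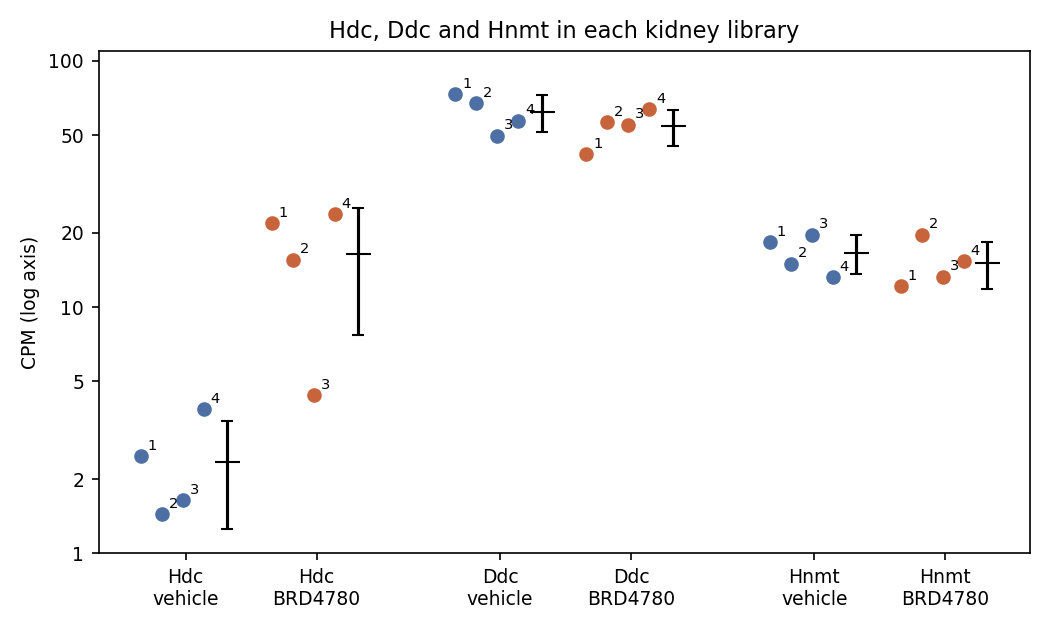
Counts per M (log axis) of Hdc, Ddc and Hnmt in each library, blue for vehicle and orange for BRD4780, with the replicate number beside each point and the mean ± SD of 4 mice as a black bar. Hdc ranges from 1.44 to 3.84 CPM in vehicle and from 4.39 to 23.9 CPM in treated libraries, with BRD4780 replicate 3 lowest of the treated, while the groups overlap in Ddc and Hnmt.

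The plot of these CPM values also shows the spread of each gene among libraries, which holds counting error as well as differences among animals. The coefficient of variation of Hdc was 46.4% with vehicle and 53.4% with BRD4780. It was 16.9% and 16.6% for Ddc and 18.2% and 22.1% for Hnmt. The treated value of Hdc includes BRD4780 replicate 3, at 4.39 CPM against 15.6 to 23.9 CPM in the other treated libraries, and is not given without it. Vehicle libraries held only 27 to 89.01 counts of Hdc, so counting error adds to its spread there. Across the 8 libraries, log2 CPM of Hdc had a Pearson r of -0.37 with Ddc and -0.25 with Hnmt. With group means removed these were -0.07 and -0.04. These describe 8 libraries with shared totals and carry no test.

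Levels of different genes were compared as CPM per kb of the longest coding transcript, which is 2392 bases for Hdc, 2018 for Ddc and 1656 for Hnmt. With vehicle the order was Ddc at 30.7 ± 5.19, Hnmt at 10.0 ± 1.82 and Hdc at 0.982 ± 0.456 CPM per kb (SD, n = 4). These 3 levels were apart by more than their spread. With BRD4780, Ddc stood at 26.9 ± 4.47, Hnmt at 9.14 ± 2.02 and Hdc at 6.88 ± 3.67 CPM per kb (SD, n = 4), so that Hdc and Hnmt no longer differed beyond their spread. Ranked by mean level per length among the genes tested, Hdc lay above 19.6% of them with vehicle and above 51.8% with BRD4780. Ddc lay above 82.6% and 80.9%, and Hnmt above 61.1% and 58.3%.

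Within each animal, the ratio of the synthesis gene to the breakdown gene can be read without reference to other libraries. Hdc over Hnmt, per length, was 0.0931, 0.0663, 0.0577 and 0.201 in vehicle replicates 1 to 4. It was 1.25, 0.548, 0.229 and 1.08 in BRD4780 replicates 1 to 4. Transcripts of Hdc thus outnumbered those of Hnmt per length in BRD4780 replicates 1 and 4 only, and the ratio of BRD4780 replicate 3 was close to that of vehicle replicate 4. The ratio holds the same Hdc values and is no further evidence of the difference.

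The receptor genes were near the limit of detection. Hrh1 (chromosome 6, 114397936 to 114483296, plus strand) had 7, 8, 6 and 4 counts in vehicle replicates 1 to 4 and 11, 7, 8 and 1 in BRD4780 replicates 1 to 4. Summed by group this gave 25 and 27 counts, a ratio per scaled total of 1.18 with a 95% counting interval of 0.659 to 2.12 (exact binomial). No difference was detectable at this depth.

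Hrh2 (chromosome 13, 54192129 to 54236180, plus strand) had 3, 0, 0 and 2 counts with vehicle and 7, 1, 4 and 3 with BRD4780. The sums of 5 and 15 counts gave a ratio of 3.28, and its counting interval, 1.13 to 11.5, covers counting error only and no spread between mice. In CPM the groups overlapped, from 0 to 0.108 with vehicle and from 0.0335 to 0.502 with BRD4780, and the highest value came from 3 counts in the shallowest library. An annotated transcript, Gm16578, overlaps Hrh2 exons on the opposite strand, and no source used here says whether the counting used strand.

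Outside the set, the receptor gene Hrh3, best known as a presynaptic autoreceptor, had 7 counts summed over vehicle libraries and 8 over treated libraries. Hrh4, known from cells of the blood lineage, had 0 counts in all 8 libraries. In a library, 0 counts allow up to 3, which is 0.101 CPM in the deepest library on its scaled total and 0.502 CPM in BRD4780 replicate 4.

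**Figure D2:**
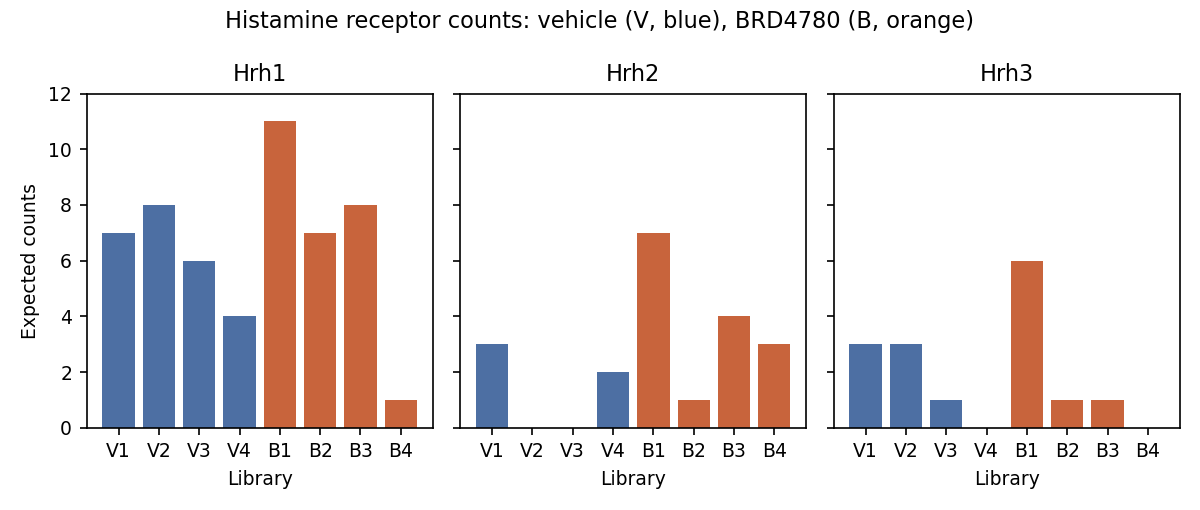
Expected counts of the receptor genes Hrh1, Hrh2 and Hrh3 in each library, as bars from 0, with vehicle replicates 1 to 4 (V1 to V4) in blue and BRD4780 replicates 1 to 4 (B1 to B4) in orange. No bar exceeds 11 counts, and B4 is the library with the smallest total.

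Markers of the cells best known for histamine were sparse. A group of 11 mast cell and basophil genes, among them the proteases Cpa3, Tpsb2 and Cma1 and the IgE receptor subunits Fcer1a and Ms4a2, summed to 14 to 31 counts in a vehicle library and 2 to 38.3 counts in a BRD4780 library. Hdc itself had 27 to 89.01 counts in vehicle and 117 to 528.95 counts in treated libraries, and in vehicle replicate 3 the 11 genes together (31 counts) exceeded Hdc (27 counts). The lowest sum of the 11 genes, 2 counts, was in BRD4780 replicate 4, the shallowest library. All of these are raw counts, scaled for neither depth nor transcript length. A part of mast cells in the Hdc values was not tested. The basophil proteases Mcpt8 and Prss34 were at 0 in all 8 libraries. The group leaves out Kit, Gata2, Hpgds and Slc18a2, which other cells of the kidney express, a choice made after the values were seen. The 4 mast cell markers that passed the filter were just these genes, and the 1 basophil marker was Gata2, so neither their 0 calls nor the summed levels of the full lists measure those cells. The sums were 39.0 to 41.6 and 33.9 to 45.3 CPM for mast cells (vehicle and BRD4780) and 16.6 to 23.0 and 17.7 to 24.5 CPM for basophils.

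Other cell markers also differed between the groups, and their part in the difference of Hdc was not tested. Over all 8 libraries 2.3% of all genes were called higher and 0.623% lower. Podocyte markers were higher in 3 of 6 (Nphs1, Podxl and Ptpro), with summed levels of 54.4 to 134 CPM with vehicle and 193 to 294 CPM with BRD4780. Endothelial markers were higher in 3 of 8 (Flt1, Eng and Egfl7), with sums of 140 to 264 and 293 to 365 CPM. Vehicle replicate 4, the vehicle library with the highest Hdc, had the lowest podocyte and endothelial sums (54.4 and 140 CPM). BRD4780 replicate 3, the treated library with the lowest Hdc, had the lowest treated sums (193 and 293 CPM). Thick ascending limb markers were lower in 3 of 6 (Kcnj1, Cldn19 and Bsnd), with sums of 2890 to 3910 and 1880 to 3110 CPM that overlapped. Without BRD4780 replicate 3, 6 of 6 podocyte and 6 of 8 endothelial markers were higher and 5 of 6 thick ascending limb markers lower. In that fit 12.1% of all genes were higher and 11.3% lower. Without vehicle replicate 2 a total of 0 markers of any list passed. In neutrophil and myeloid markers 0 of 4 and in macrophage markers 0 of 6 were called, and the myeloid sum was highest in vehicle replicate 4, at 85.8 CPM against 22.6 to 32.7 CPM in the other 7 libraries. Among the other lists, 0 of 10 tested markers of distal tubule and collecting duct, 0 of 8 of smooth muscle and fibroblasts, 0 of 2 of nerve and adrenal medulla, 0 of 5 of adipocytes and 0 of 1 of gut endocrine cells were called. Over the marker lists with 0 calls by edgeR, 12 of 53 tested entries had an unadjusted p under 0.05, against 24.6% of all genes. DESeq2 called 15 markers higher and 9 lower over all lists, where it called 6.43% of all genes higher and 3.84% lower.

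Around the set, 96 further genes of histamine transport and oxidation, histidine use, aromatic amines, polyamines, methyl donors, pyridoxal phosphate and receptor signalling were followed, of which 73 were tested. Over all 8 libraries, 1 was higher and 1 lower, or 2.74% against 2.92% of all genes. Slc3a2, the CD98 heavy chain that carries amino acid exchangers to the membrane, was at 150, 157, 159 and 147 CPM in vehicle replicates 1 to 4 and 235, 274, 224 and 336 CPM in BRD4780 replicates 1 to 4. All treated libraries lay above all vehicle libraries (1.74-fold, adjusted p = 0.0141). Leaving out vehicle replicate 1 (adjusted p = 0.0545) or vehicle replicate 2 (adjusted p = 0.061) ended the call.

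Uroc1 encodes urocanase, an enzyme of histidine breakdown and so of the other main fate of the substrate of histidine decarboxylase. Uroc1 was lower with BRD4780, at 27.8 ± 6.01 against 50.5 ± 5.71 CPM (SD over 4 mice; adjusted p = 0.0209), with 42.3 to 55 CPM in vehicle libraries and 20.6 to 33.8 CPM in treated ones. Its call also ended without vehicle replicate 1, 2 or 3 (adjusted p = 0.0689, 0.0762 and 0.062) or BRD4780 replicate 1 or 2 (adjusted p = 0.0599 and 0.0714). The other enzymes of this route were too low to test (Hal and Amdhd1, under 1 CPM in each library) or did not pass (Ftcd, adjusted p = 0.792). The histidine list had 11 tested genes with a median log2 fold change of 0.02, beside 0.01 over all genes. Slc7a5, the light chain that pairs with CD98 and carries histidine among other large amino acids, ranged from 6.27 to 7.24 CPM in vehicle and from 7.70 to 16.2 CPM in treated libraries and missed the threshold (adjusted p = 0.0827).

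In the other lists 0 of 62 genes passed edgeR's test over all 8 libraries, and 12 had an unadjusted p under 0.05, against 24.6% of all genes. Over all the lists around the set, DESeq2 called 4 genes higher and 6 lower. DESeq2 used its own filter and called 6.43% higher and 3.84% lower of the 13243 genes it tested. Among 12 tested genes for receptors, oxidation and transport of histamine (median log2 fold change -0.19), the smallest p-values belonged to Slc22a2, the organic cation transporter OCT2 of the proximal tubule, and to Aldh3a2, an aldehyde dehydrogenase gene. Slc22a2 stood at 472, 530, 432 and 525 CPM in vehicle replicates 1 to 4 and at 326, 279, 488 and 288 CPM in BRD4780 replicates 1 to 4 (adjusted p = 0.112). Aldh3a2 stood at 277, 284, 240 and 295 CPM, and at 165, 170, 288 and 158 CPM (adjusted p = 0.139). In each of these genes BRD4780 replicate 3 lay inside the vehicle range and the other treated libraries lay below it.

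The monoamine oxidase genes Maoa and Maob, whose products act on methylhistamine, had log2 fold changes of 0.23 ± 0.17 and -0.38 ± 0.21 (SE), neither past the threshold (adjusted p = 0.423 and 0.273). Slc18a1, a vesicular monoamine transporter gene, ranged from 94.2 to 101 CPM in vehicle and from 49.8 to 123 CPM in treated libraries (adjusted p = 0.364). Slc18a2, whose product loads histamine into vesicles, was at 1.77 to 3.79 and 1.67 to 3.46 CPM (adjusted p = 0.957).

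Of 14 tested genes of polyamines and copper amine oxidases (median -0.06), Aoc2, a copper amine oxidase gene, was at 2.5 to 4.15 CPM in vehicle and 5.15 to 5.46 CPM in treated libraries (adjusted p = 0.0608), and the antizyme gene Oaz1 had a log2 fold change of -0.27 (adjusted p = 0.0965). Of 6 tested genes of aromatic amines (median -0.11), Gch1, which starts tetrahydrobiopterin synthesis, had a log2 fold change of 0.56 (adjusted p = 0.253). Of 9 tested genes of methyl donor supply (median -0.03), those with the smallest p-values were Bhmt (-0.58, adjusted p = 0.0827) and Ahcyl2 (-0.43, adjusted p = 0.107). Of 6 tested genes of pyridoxal phosphate supply and related decarboxylases (median -0.05), these were the cysteine sulfinate decarboxylase gene Csad (-0.57, adjusted p = 0.068) and the pyridoxal kinase gene Pdxk (0.12, adjusted p = 0.49). Of 15 tested genes of receptor signalling (median 0.06), these were the adenylyl cyclase gene Adcy4 (0.58, adjusted p = 0.0732) and the inositol trisphosphate receptor gene Itpr3 (0.48, adjusted p = 0.174).

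Without BRD4780 replicate 3, 7 of the 73 genes were higher and 19 lower, or 35.6%, against 23.5% of all genes in that fit. Transport and oxidation genes then had 5 of 12 lower, namely Slc22a2 (0.608 of the vehicle level), Aldh3a2 (0.600), Slc18a1 (0.625), Aldh7a1 (0.735) and Aldh2 (0.867). The histidine list had 3 of 11 lower, including Uroc1 (0.519), and 2 higher, Slc3a2 (1.84-fold) and Slc7a5 (1.81-fold, adjusted p = 0.00732). Aromatic amine genes had 3 of 6 lower, and methyl donor genes 3 of 9 lower, including Bhmt (0.623) and Ahcyl2 (0.657). Polyamine genes had 4 of 14 lower, including Oaz1 (0.802) and Odc1 (0.691), the entry enzyme of the pathway. The same list had 2 higher, including Aoc2 (1.66-fold). Csad (0.591) was lower, and Adcy4, Itpr3 and Adcy6 of the receptor signalling list were higher. These calls rest on leaving out a library that was seen to stand apart, and the summed proximal tubule markers, with and without Kap, were also lower in the remaining treated libraries than with vehicle, a part that was not tested.

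**Figure D3:**
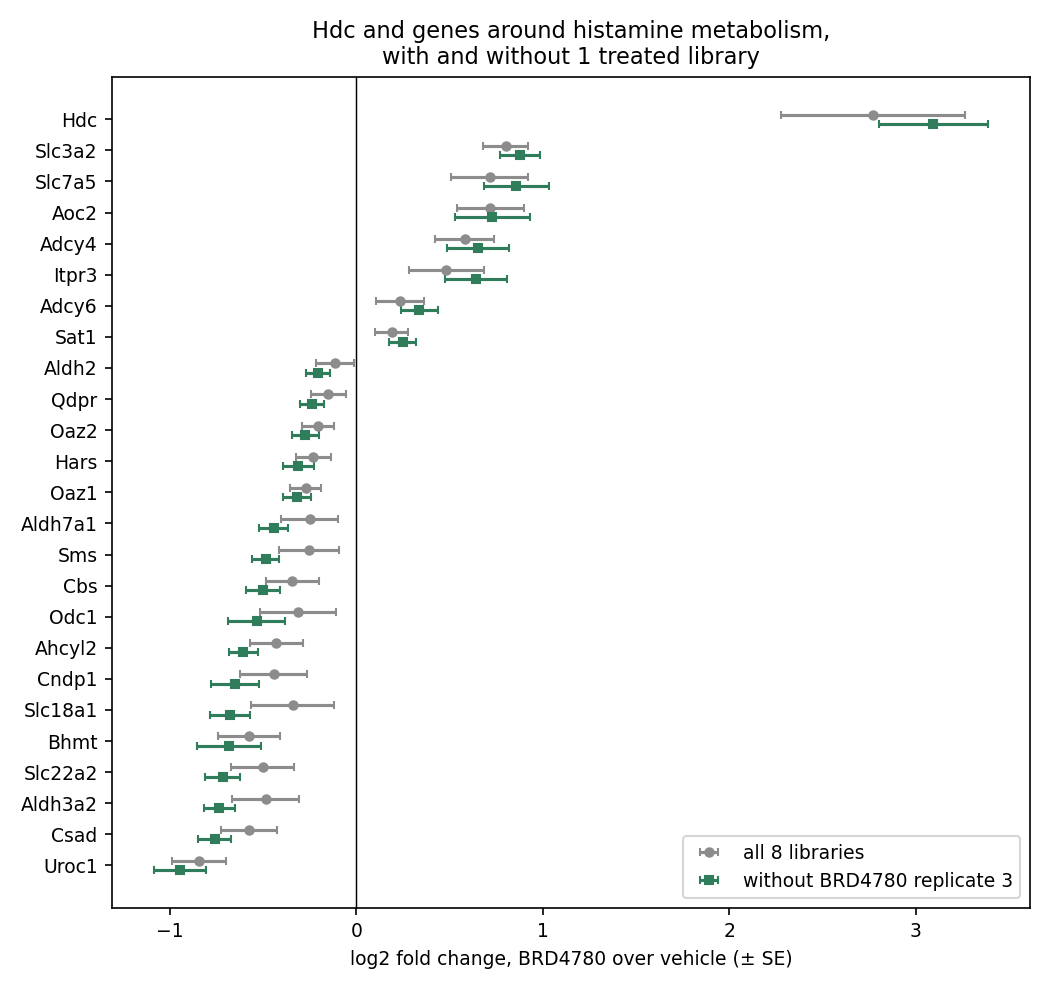
Log2 fold change of BRD4780 over vehicle (± SE) for Hdc and 24 of the 26 surrounding genes called without BRD4780 replicate 3, with grey circles for all 8 libraries and green squares for the fit without that library. Hdc lies at 2.77 and 3.10, and the lower genes, from Aldh2 to Uroc1, move further from 0 without the library. The surrounding genes were picked by their calls in that fit, which favours larger shifts there, so nothing is read from the move.

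The genes whose levels followed Hdc most closely over the 8 libraries were sought by Pearson r of log2 CPM among 11152 genes. These were Cep57 (r = 0.991), a centrosomal protein gene, the imprinted zinc finger gene Peg3 (r = 0.991), Hif3a (r = 0.988) of the hypoxia-inducible factor family, Eif2ak4 (r = 0.987), which encodes the amino acid sensing kinase GCN2, and the deubiquitinase gene Usp36 (r = 0.986). After removal of group means r was 0.959 to 0.969 for these 5 genes. They were picked for high r in the same libraries, so these values are no further support. These values describe 8 libraries that share totals and scaling, and in each of the 5 genes BRD4780 replicate 3 was the lowest treated library.

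Peg3 was at 4.63, 2.95, 4.55 and 7.11 CPM in vehicle replicates 1 to 4 and at 26.8, 24.8, 9.31 and 31.6 CPM in BRD4780 replicates 1 to 4. Hif3a was at 0.979, 1.03, 0.914 and 1.77 CPM, and at 13.7, 9.83, 2.70 and 15.1 CPM. In Hdc, Peg3 and Hif3a vehicle replicate 4 was the highest vehicle library and BRD4780 replicate 3 the lowest treated one. Cep57 and Eif2ak4 spanned a far smaller range, with log2 fold changes of 0.40 and 0.37. For Ddc the nearest genes were Eif4e (r = 0.966) and Kdm2b (r = 0.965), and for Hnmt Slc44a1 (r = 0.967) and Zfp407 (r = 0.954).

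**Figure D4:**
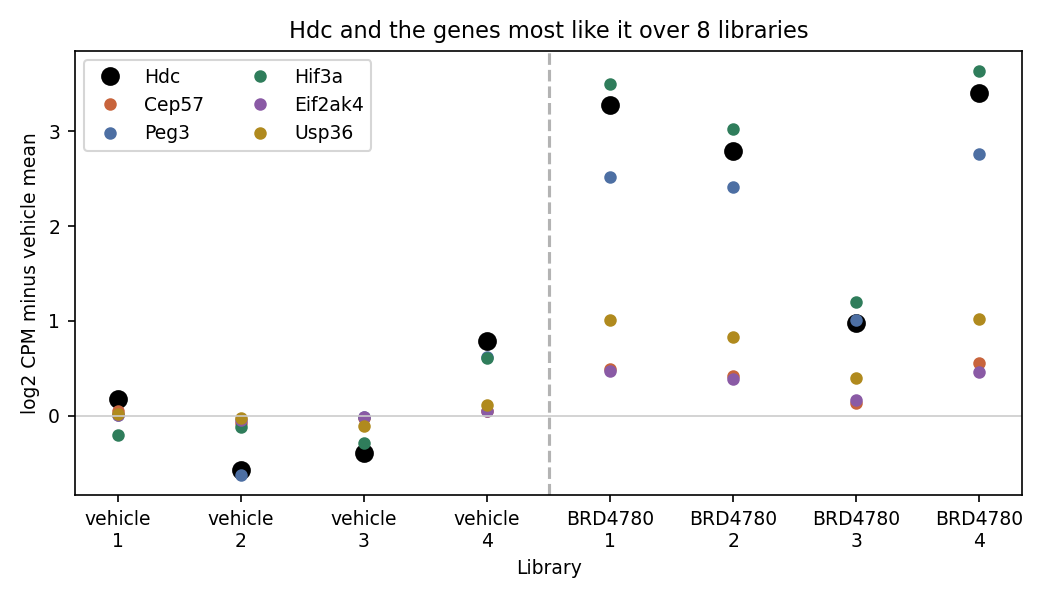
Log2 CPM minus the vehicle mean in each library for Hdc (large black points) and the 5 genes with the highest Pearson r to it over 8 libraries. In BRD4780 replicate 3 Hdc stands at 0.98, against at least 2.79 in the other treated libraries and 0.79 in vehicle replicate 4, and the other genes dip in the same library.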

How the data were processed

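The authors deposited expected counts per gene, not normalized. Per the submitters' processing notes they used RSEM 1.3.0, STAR 2.5.2b and Picard, with mm10 and hg19 named as builds and no role stated. Annotation and strand setting: not given in the sources used here. Of 22121 entries, 343 repeated symbols with identical values were collapsed, leaving 21759 genes, and 1 column matching no sample was not used. Coordinates and lengths came from GENCODE M21.

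Counts were rounded, filtered (filterByExpr, minimum count 10), scaled by TMM and tested with edgeR 4.0.16 (R 4.3.3) by the quasi-likelihood F-test over 8 libraries with no covariate, with Benjamini-Hochberg adjustment over 13474 genes. SE is the absolute log2 fold change over the square root of F. CPM use TMM-scaled totals, and log2 CPM a prior count of 2. Named were the members, the called genes of each list or else those with the smallest p, and the genes most like each member. The values of 2 listed genes are not reported here, though both are counted in their list. Members and lists were chosen with earlier results of these data known, and other genes named were chosen after their values were seen. Alternatives were other scalings, DESeq2 1.42.0, no filter, thinned totals and leaving out each library.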

Additional observations from a re-analysis of the deposited data

Results flagged for a closer look

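Hrh3 stood at 0.248 CPM (6 counts) in BRD4780 replicate 1 and at 0 to 0.0376 CPM in the other treated libraries. The gap was 0.849 of the group's range. Of 16 groups of 4 examined this was the only such value, and chance flags about 1 in 20. The flag rests on few counts. The counting interval of BRD4780 replicate 1, 0.0911 to 0.54 CPM, overlapped those of replicates 2, 3 and 4, which reach 0.187, 0.209 and 0.617 CPM.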

How the results depend on the processing

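Hdc stayed higher with BRD4780 under all alternatives, with a log2 fold change of 2.563 to 3.103 when a library was left out. It no longer passed the threshold in 6 of these 8 fits. Hdc was in view when the set was chosen, so its staying higher in the same libraries is no further support. With a library left out Ddc ran from -0.297 to -0.091 and Hnmt from -0.3 to -0.031, and neither passed the threshold in any setting. Leaving out a library gave 26 to 1647 genes higher and 5 to 1537 lower, with both maxima without BRD4780 replicate 3 and fewer than over all 8 libraries in the other fits for genes higher. Pathway genes then numbered 0 to 7 higher and 0 to 19 lower, and marker genes 0 to 15 in each direction. DESeq2 called 851 genes higher and 508 lower, with 4 pathway genes higher and 6 lower and 15 markers higher and 9 lower, and the cause was not tested. The other scalings, the missing filter and the thinned totals kept every count within 1.5 times. The sample titles hold numbers of unstated meaning, of which 2 are shared by a vehicle and a BRD4780 library each (vehicle replicate 2 with BRD4780 replicate 1, and vehicle replicate 4 with BRD4780 replicate 2). Deviations from the group means correlated at -0.01 and -0.298 over genes in these pairs. With only 2 pairs these values cannot decide whether the numbers pair the mice, and the main fit took no block. A fit with the title number as a replicate block, chosen after seeing the data, rests on these 4 libraries and has 1 residual degree of freedom. In this block fit the log2 fold change was 2.925 for Hdc, which did not pass the threshold, and -0.351 for Ddc. For Hnmt it was 0.143, with its sign reversed (adjusted p = 0.794). The block fit called 57 genes higher and 90 lower, 0 pathway genes higher and 4 lower, and 3 markers higher and 2 lower. Depth limits the receptor genes, with 52 counts of Hrh1 and 20 of Hrh2 in all.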
